A study of Saccharomyces cerevisiae with 6 samples.

Results

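The 8 core histone genes of budding yeast lie in 4 divergent pairs, and the copy number of these loci was followed through early S phase in wild-type and *pol2-REL* cells. The pairs were chosen by gene name and position, not by measured values. They are HTA2-HTB2 (chromosome II, 235001 to 237000), HHF1-HHT1 (II, 255001 to 257000), HTB1-HTA1 (IV, 914001 to 916000) and HHT2-HHF2 (XIV, 575001 to 578000), in the SacCer2 coordinates of the data. These intervals fill 9 of the 12070 bins of 1 kb that do not overlap, and 147 bins when 20 kb is added on each side. Within that flank the windows of both chromosome II pairs overlap, since their middles are 20 kb apart. All cells were W303 strains that carry a 3HA tag and the KAN marker at *POL2*, the gene of the catalytic subunit of DNA polymerase ε. Wild type had the genotype Pol2-3HA::KAN and the mutant *pol2-REL*-3HA::KAN, an allele with 3 substitutions in a subdomain at the edge of the catalytic core. The labels give these libraries 1 strain ID per genotype. Cells were grown at 24 °C, arrested in G1 with alpha factor, and released with pronase. DNA was sequenced in G1, 30 min and 40 min after release, with 1 library for each of these 6 conditions, so that no test between conditions was possible. Intervals given here are 95% intervals from the Poisson error of the read counts and do not cover differences between cultures.

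Core histones form the protein spool of the nucleosome. In budding yeast each of the 4 proteins, H2A (HTA1, HTA2), H2B (HTB1, HTB2), H3 (HHT1, HHT2) and H4 (HHF1, HHF2), is encoded by 2 genes. Each H2A gene shares a promoter region with an H2B gene and each H3 gene with an H4 gene, and the partners are transcribed away from each other. The locus tags carry this arrangement: the first gene of each pair, as named here, ends in C (Crick strand) and the second in W (Watson strand). The RefSeq table of R64, a different assembly used only for names and order, lists no gene between the partners. Histone transcription is confined largely to late G1 and S phase, when new DNA has to be packed. The HIR complex represses all of the pairs but HTA2-HTB2 outside this period. Both H3 genes encode the same protein, as do both H4 genes, and the H2A and H2B copies differ at a few residues. HHT2-HHF2 is known as the more strongly expressed H3-H4 pair. In yeast DNA replication starts at many origins with a typical time for each, and a gene is copied when a fork from a nearby origin reaches it.

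The bins held 19156804 to 40161464 reads per library, and the median bin with reads 1638 to 3389, for which the counting error alone is 1.72 to 2.47%. Copy number is given as the deposited ratio of S phase to G1 reads with a mean of 1 on each chromosome, smoothed here with a Gaussian kernel of 2 kb SD. A value above 1 means more DNA than the average of that chromosome. The scale has no factor for DNA content, so it ranks loci and does not give the share of cells in which a locus was copied. A second scale, with a mean of 1 over the whole genome, was used to set chromosomes against each other. Near-identical gene copies can lose reads when repeats are excluded, so depth at the pairs was looked at first. In both G1 libraries the mean bin of every pair lay between 0.945 and 0.998 times the median bin of its chromosome. Against the median bin of the genome the G1 depth of HTB1-HTA1 was 0.855 for wild type and 0.967 for the mutant. Against the median bin of chromosome IV it was 0.945 and 0.982, a smaller difference. The median bin of that chromosome, and not the locus alone, was thus lower against the genome in wild-type G1. This difference enters every value of HTB1-HTA1 with a mean of 1 over the genome, and its part in them was not tested. No bin of a pair was without a value in any profile.

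Of the 4 pairs, HTB1-HTA1, HHF1-HHT1 and HTA2-HTB2 were among the loci with the most DNA in all 4 S phase profiles, and HHT2-HHF2 was among those with the least at 30 min. Of the 16 values (4 pairs in 4 profiles), 12 were in the top range of their profile that holds 25.0% of bins by definition. These 12 were the values of the first 3 pairs, and HHT2-HHF2 had none. The plot of the pairs within the distribution of all bins shows this gap in every profile.

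**Figure D1:**
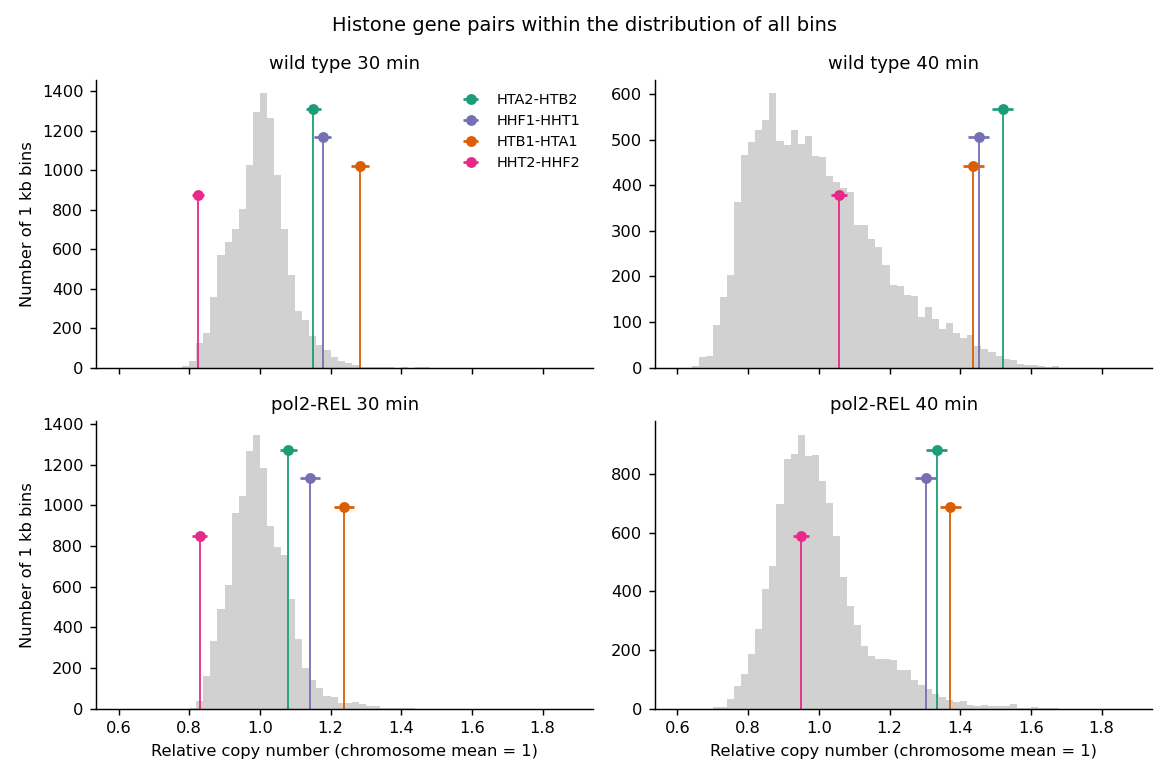
Distribution of smoothed relative copy number (x axis, chromosome mean of 1) over all non-overlapping bins (y axis, number of bins) in each S phase profile, with coloured lines at the 4 histone gene pairs and horizontal bars for their 95% counting intervals; the height of a coloured line has no meaning. HHT2-HHF2 lies at the left edge at 30 min (0.824 in wild-type cells, 0.830 in *pol2-REL* cells) and near the middle at 40 min (1.06 and 0.950), while the other 3 pairs lie in the right tail or, for HTA2-HTB2 in *pol2-REL* cells at 30 min (1.08), on the right shoulder.

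HTB1-HTA1, which encodes H2B and H2A on the right arm of chromosome IV, had the highest copy number of the pairs at 30 min. Its bins held 4226 reads in wild-type G1, 8262 at 30 min and 6498 at 40 min, and 3167, 5927 and 7190 reads in the same order in *pol2-REL* cells. Relative to the median bin of chromosome IV this was 0.945, 1.24 and 1.38 in wild-type cells and 0.982, 1.24 and 1.39 in *pol2-REL* cells. Depth at the locus thus rose from G1 to 30 min and again to 40 min in both genotypes. The relative copy number at 30 min was 1.28 in wild-type cells (1.26 to 1.31) and 1.24 in *pol2-REL* cells (1.21 to 1.27). Of 11572 bins of the wild-type profile, 25 were higher, which puts the pair at the percentile 99.8, and 134 of 11504 bins were higher in *pol2-REL* cells, a percentile of 98.8. At 40 min the copy number was 1.44 (1.41 to 1.47) and 1.37 (1.34 to 1.40), at the percentiles 98.1 and 98.6.

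HTB1-HTA1 sat on a peak. The nearest maximum of the profile was in the bin from 914001 to 915000 in wild-type cells at both times and in the bin before it in *pol2-REL* cells, so that the middle of the pair was 0.5 and 1.5 kb away. Only 3 of the 262 peaks of the wild-type profile at 30 min were higher, and 7 of the 223 peaks in *pol2-REL* cells. Copy number fell away on both sides. In wild type at 30 min it was 1.15 at 5 kb to the left and 1.08 at 5 kb to the right, and 0.929 and 0.889 at 15 kb. At 40 min the slopes were broader, with 1.41 and 1.34 at 5 kb and 1.25 and 1.08 at 15 kb, and at 5, 10 and 15 kb the left side was above the right side. The pair stood at 1.42 times its flanks of 15 to 20 kb in wild-type cells at 30 min (1.39 to 1.46) and at 1.28 times at 40 min (1.25 to 1.31). In *pol2-REL* these values were 1.36 (1.32 to 1.40) at 30 min and 1.36 (1.33 to 1.40) at 40 min.

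HTA2-HTB2, the other H2A-H2B pair, lies beside the centromere of chromosome II. Open reading frames in yeast are numbered outward from the centromere, and HTB2 (YBL002W) and HTA2 (YBL003C) are number 2 and 3 of the left arm. Budding yeast centromeres are known to replicate early. The bins of the pair held 4772, 7380 and 6914 reads in wild-type cells (G1, 30 and 40 min) and 3145, 5346 and 7014 in *pol2-REL* cells. Relative to the median bin of the chromosome these were 0.967, 1.07 and 1.44, and 0.963, 1.06 and 1.30. The increase between 30 and 40 min was thus the main part of the rise. The relative copy number at 30 min was 1.15 in wild-type cells (1.13 to 1.17) and 1.08 in *pol2-REL* cells (1.06 to 1.11), at the percentiles 96.4 and 86.2. At 40 min it was 1.52 in wild-type cells (1.49 to 1.55), at the percentile 99.5, and 1.33 in *pol2-REL* cells (1.30 to 1.36), at the percentile 97.9. The percentile in *pol2-REL* cells at 30 min is the least certain of these, and the counting interval of the level spans 78.0 to 91.8.

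HHF1-HHT1, an H4-H3 pair, lies on the other side of the same centromere, as number 9 (YBR009C) and number 10 (YBR010W) of the right arm. Its bins held 4928, 7792 and 6753 reads in wild-type cells and 3221, 5917 and 7161 in *pol2-REL* cells, or 0.998, 1.13 and 1.41, and 0.986, 1.17 and 1.33 times the median bin of the chromosome. The relative copy number was 1.18 (1.15 to 1.20) in wild-type cells and 1.14 (1.11 to 1.17) in *pol2-REL* cells at 30 min. At 40 min it was 1.45 (1.42 to 1.48) and 1.30 (1.27 to 1.33). The percentiles ran from 95.5 in *pol2-REL* cells at 30 min to 98.4 in wild-type cells at 40 min, so that the pair stayed within the highest 5% of bins on this scale. With a mean of 1 over the genome the lowest of its percentiles was 92.5.

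The chromosome II pairs sat at separate peaks. The maximum beside HTA2-HTB2 was in the bin from 237001 to 238000 in all 4 profiles, 1.5 kb to the right of the middle of the pair. The maximum beside HHF1-HHT1 was 1.5 kb to the left, in the bin from 254001 to 255000, in 3 profiles, and 2.5 kb to the left in wild-type cells at 40 min. Both pairs thus lay on the outer side of their peaks, away from the stretch between them. In that stretch of 18 bins the wild-type profile fell to 0.989 at 30 min, which is 0.163 below HTA2-HTB2 and 0.189 below HHF1-HHT1. At 40 min its lowest value was 1.41, only 0.105 and 0.0374 below the pairs. In *pol2-REL* the lowest value between them was 0.926 at 30 min, 0.154 and 0.214 below the pairs. At 40 min it was 1.22, which is 0.118 and 0.0864 below them. The valley was therefore shallower at 40 min than at 30 min in both genotypes. At that time the peak of HHF1-HHT1 in wild-type cells had a prominence of only 0.0570, and with the smoothed column deposited by the authors, a kernel of 4 kb, the *pol2-REL* G1 library as reference or a prominence of 8 counting errors it merged with its neighbour, at a distance of 17.5 to 18.5 kb. To the left of HTA2-HTB2 4 bins from 222001 to 226000 had no value in wild-type cells, and to the right of HHF1-HHT1 7 bins from 259001 to 266000 had none in either genotype.

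**Figure D2:**
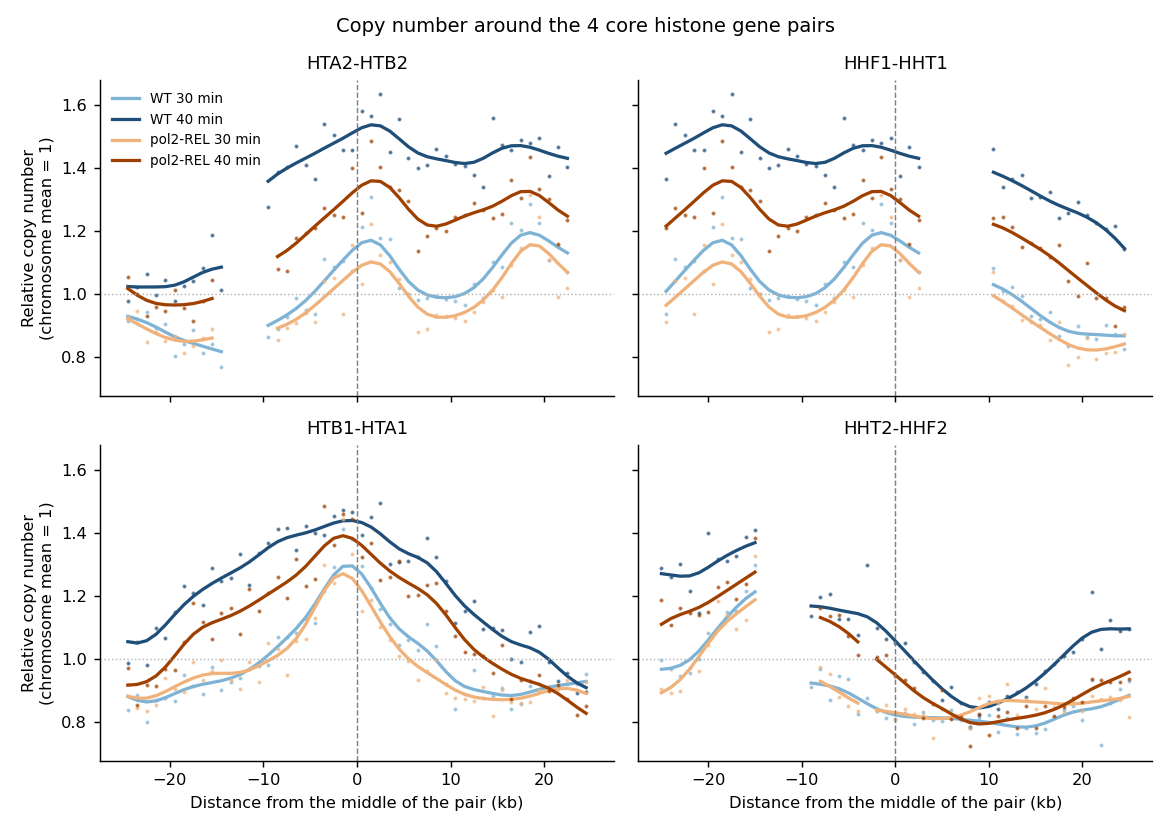
Relative copy number (y axis, chromosome mean of 1) against distance from the middle of each histone gene pair in kb (x axis) in the 4 S phase profiles; lines are smoothed values, dots the deposited value of each bin, and gaps are bins without a value. HTB1-HTA1 lies on its own peak. HTA2-HTB2 and HHF1-HHT1, whose middles are 20 kb apart, lie at neighbouring peaks, and HHT2-HHF2 lies on a slope that descends from the left.

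HHT2-HHF2, the second H3-H4 pair, is on the left arm of chromosome XIV, as numbers 31 (YNL031C) and 30 (YNL030W) from the centromere. Its 3 bins held 7433 reads in wild-type G1, 8297 at 30 min and 7152 at 40 min, and 4806, 6448 and 8146 in *pol2-REL* cells. Relative to the median bin of the chromosome these were 0.984, 0.787 and 1.03, and 0.976, 0.843 and 0.980. Unlike at the other pairs, depth at 30 min was below that of G1 when set against the rest of the chromosome. The relative copy number at 30 min was 0.824 in wild-type cells (0.807 to 0.841) and 0.830 in *pol2-REL* cells (0.809 to 0.850). Of all bins, 60 were lower in wild-type cells and 18 in *pol2-REL* cells, which are percentiles of 0.518 and 0.156. These ranks depended on the scaling of chromosomes. With a mean of 1 over the genome they were 10.3 and 5.08, still in the lowest 25% of bins. On the deposited scale, the bin with the lowest smoothed value of the *pol2-REL* profile at 30 min, 0.811, lay 4 kb to the right of the middle of this pair. At 40 min the copy number was 1.06 in wild-type cells (1.03 to 1.08), at the percentile 66.7, and 0.950 in *pol2-REL* cells (0.927 to 0.972), at the percentile 38.9. With a mean of 1 over the genome these percentiles were 55.4 and 55.6, so that the gap in rank between the genotypes was not present on that scale.

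No peak was called near HHT2-HHF2. The nearest maximum was 14 kb to the left in all 4 profiles, in a bin from 562001 to 563000 that has no value of its own and begins a run of 5 such bins in wild-type cells. Its position is interpolated, and the highest measured bin within 20 kb was 15 kb to the left, with 1.21 in wild-type cells and 1.19 in *pol2-REL* cells at 30 min. Without peaks beside missing bins, an alternative chosen after the data were seen, the nearest peak was 33 to 34 kb away. Copy number descended past the genes. In wild type at 40 min it was 1.15 at 5 kb to the left, 1.06 at the pair, 0.906 at 5 kb and 0.850 at 10 kb to the right. It then rose to 1.07 at 20 kb to the right. In *pol2-REL* at 40 min it was 1.08 at 5 kb to the left, 0.950 at the pair and 0.796 at 10 kb to the right, and it was 0.888 at 20 kb. The pair thus lay partway down the slope, with the minimum of the window 9 kb further to the right in both genotypes.

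A bin counts as near a peak when its distance is at most 5 kb. By this measure 24.0% of all bins were near a peak in wild-type cells at 30 min, 23.3% at 40 min, 20.4% in *pol2-REL* cells at 30 min and 19.7% at 40 min. Of the 16 values of the pairs, 12 were near a peak, again those of HTB1-HTA1, HTA2-HTB2 and HHF1-HHT1. The largest distance among them was 2.5 kb. The median bin was 12 kb from a peak in wild-type cells and 14 kb in *pol2-REL* cells, against 14 kb for HHT2-HHF2 with the interpolated peak. Between 44.4 and 52.9% of all bins were 14 kb or farther from a peak, depending on the profile. The 33 to 34 kb for HHT2-HHF2 without peaks beside missing bins has no like median, since none was computed for that set of peaks.

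All pairs gained copy number from 30 to 40 min in both genotypes. Both times of a genotype were divided by the same G1 library, whose error is counted once in the intervals. By over 3 counting errors 38.2% of bins were higher at 40 than at 30 min in wild-type cells and 28.6% in *pol2-REL* cells, and all 8 changes of the pairs were. The largest was at HTA2-HTB2, 0.369 in wild-type cells (0.345 to 0.393) and 0.253 in *pol2-REL* cells (0.230 to 0.276). Of all bins, 97.4% and 98.9% had a smaller change. At HHF1-HHT1 the change was 0.274 (0.249 to 0.299) and 0.161 (0.137 to 0.185), and at HHT2-HHF2 0.234 (0.214 to 0.254) and 0.120 (0.101 to 0.140). HTB1-HTA1, the pair with the most DNA at 30 min, had the smallest change in wild-type cells on the deposited scale, 0.154 (0.130 to 0.177), and 0.135 in *pol2-REL* cells (0.112 to 0.159). The change in *pol2-REL* cells minus that in wild-type cells was -0.116 at HTA2-HTB2 (-0.149 to -0.0828), -0.113 at HHF1-HHT1 (-0.148 to -0.0785) and -0.114 at HHT2-HHF2 (-0.142 to -0.0858). At HTB1-HTA1 it was -0.0183 (-0.0519 to 0.0152), which counting error alone can give. The pair that stood apart depended on the scale. With a mean of 1 over the genome the wild-type change was smallest at HHT2-HHF2, 0.143, against 0.175 at HTB1-HTA1. On that scale the change in the mutant minus that in wild type was -0.0119 at HHT2-HHF2 (-0.0399 to 0.0161) and -0.0409 at HTB1-HTA1 (-0.0758 to -0.00610). It was -0.0674 at HTA2-HTB2 (-0.100 to -0.0347) and -0.0660 at HHF1-HHT1 (-0.100 to -0.0316), so that the chromosome II pairs rose less in the mutant on both scales. This was not set against the difference in change of other bins. On the deposited scale the whole mutant profile at 40 min was flatter, with an SD of 0.128 against 0.179 in wild-type cells.

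**Figure D3:**
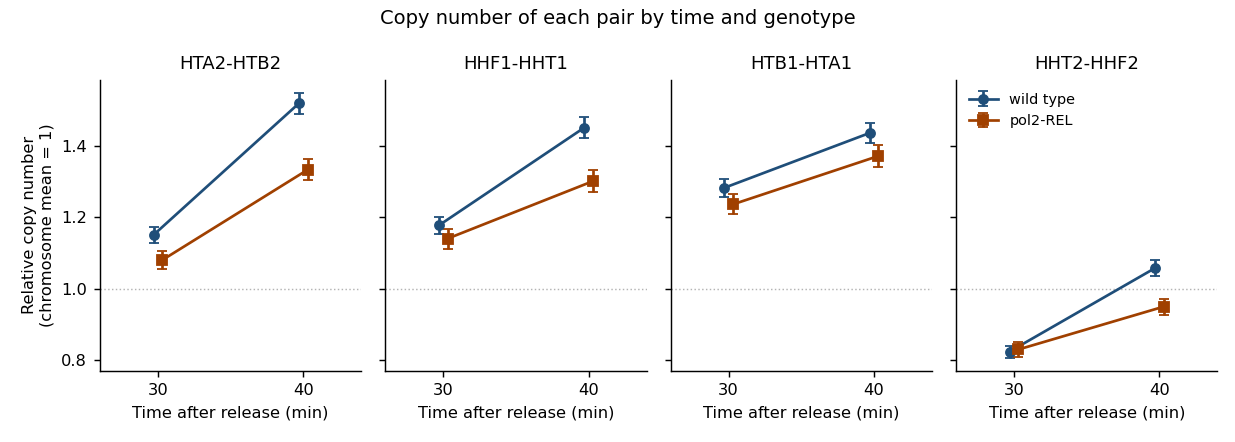
Smoothed relative copy number of each histone gene pair (y axis, chromosome mean of 1) at 30 and 40 min after release (x axis) in wild-type cells (circles) and *pol2-REL* (squares), 1 library per point; bars are 95% intervals from counting error and the points of a time are set slightly apart. Every pair rises from 30 to 40 min, and on this scale the lines diverge at 3 pairs and are nearly parallel at HTB1-HTA1; with a mean of 1 over the genome HHT2-HHF2 is the pair with the smallest difference in change (-0.0119).

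The genotypes were then compared at each pair. By over 3 counting errors the mutant was below wild type in 30.1% of all bins at 30 min and in 36.1% at 40 min. At 40 min the mutant profile was flatter, with an SD of 0.128 over all bins against 0.179 in wild-type cells. Its 5th and 95th percentiles were 0.831 and 1.25, against 0.765 and 1.35. With both means at 1, the upper end of the mutant profile was thus lower as a whole. The pairs were not set against other loci of like rank. Of the pairs, 1 of 4 was lower at 30 min and 4 of 4 at 40 min. HTA2-HTB2 was lower at 30 min, with a difference (*pol2-REL* minus wild type) of -0.0705 (-0.104 to -0.0371). HHF1-HHT1 and HTB1-HTA1 had differences of -0.0371 and -0.0463 at that time, under 3 counting errors each on the deposited scale, and HHT2-HHF2 one of 0.00575 (-0.0208 to 0.0323). With a mean of 1 over the genome HHF1-HHT1 and HTB1-HTA1 were also called lower in the mutant, with differences of -0.0591 and -0.210. The latter includes the unequal G1 depth of HTB1-HTA1 against the median bin of the genome (0.855 in wild type, 0.967 in the mutant). The part of this depth in it was not tested. With mutant G1 counts as the reference of each profile, the differences were 0.0153 at HHF1-HHT1 and 0.01485 at HTB1-HTA1, neither of them called. At HTA2-HTB2 the difference was then -0.0319, smaller but still called lower. For HHT2-HHF2, dividing both genotypes by the same G1 library raised the value to between 0.0398 and 0.0418, beyond 3 counting errors and higher in the mutant, so that whether HHT2-HHF2 was called at 30 min depended on the G1 reference.

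At 40 min the difference was -0.186 at HTA2-HTB2 (-0.228 to -0.145) and -0.150 at HHF1-HHT1 (-0.193 to -0.107), and 8.79% and 13.6% of all bins had a more negative one. It was -0.108 at HHT2-HHF2 (-0.140 to -0.0760) and -0.0646 at HTB1-HTA1 (-0.107 to -0.0225). Both chromosome II pairs were lower in *pol2-REL* cells at 40 min under all 12 alternative settings of the copy number. The other calls were less firm. At HHT2-HHF2 the difference was -0.00197 with a mean of 1 over the genome, within counting error. At HTB1-HTA1, where the main difference only just exceeded 3 counting errors, it fell short of 3 in 5 of the 12 settings and lay between -0.00572 and 7.20e-05 when both genotypes were divided by the same G1 library. Other scales made it larger, -0.251 with a mean of 1 over the genome and -0.275 with the 5th percentile of each chromosome at 1.

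The lower copy number at 40 min extended over the surroundings of each pair on the deposited scale, on which the windows were counted. The windows were not counted with a mean of 1 over the genome, where the difference at HHT2-HHF2 itself was -0.00197. Of the bins within 20 kb with values in both genotypes, all 36 at HTA2-HTB2 and all 35 at HHF1-HHT1 were lower in *pol2-REL* cells by over 3 counting errors, as were 38 of 42 at HTB1-HTA1 and 33 of 36 at HHT2-HHF2, against 36.1% of all bins. Bins of a window share forks and are not independent. The windows of both chromosome II pairs overlap, so that the stretch from one pair to the other enters both of their counts at either time. At 30 min these counts were 19, 19, 8 and 0, against 30.1%, and 9 bins around HHT2-HHF2 were higher in *pol2-REL* cells. The difference was not even within a window. Within the window of HTB1-HTA1 it was smallest at the peak, -0.0472 at 1.5 kb to the left of the middle, and largest on the left slope, -0.147 at 9.5 kb. At HTA2-HTB2 it reached -0.262 at 8.5 kb to the left. At HHT2-HHF2 the excess in *pol2-REL* cells at 30 min reached 0.0825 at 13 kb to the right, 1 kb from the lowest wild-type bin of the window, and at 40 min the deficit reached -0.181 at 21 kb to the right.

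**Figure D4:**
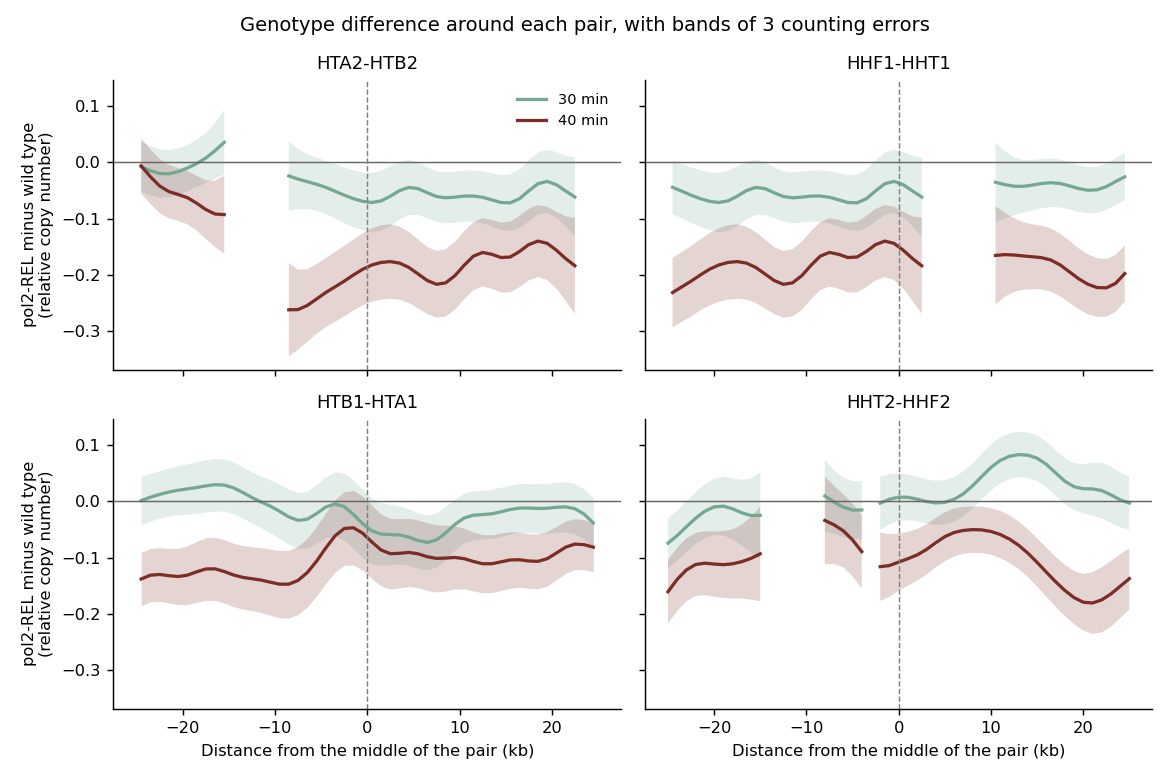
*pol2-REL* minus wild type in smoothed relative copy number (y axis) against distance from the middle of each histone gene pair in kb (x axis) at 30 and 40 min; bands are 3 counting errors on each side and gaps are bins without a value. On this scale, with a chromosome mean of 1, the line for 40 min is below 0 within 20 kb of each pair. Around HTB1-HTA1 it comes nearest to 0 at the peak (-0.0472 at 1.5 kb to the left).

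Since both H3-H4 pairs encode the same proteins, the copies were set side by side. HHF1-HHT1 was above HHT2-HHF2 by 0.354 in wild-type cells at 30 min (0.325 to 0.383) and by 0.394 at 40 min (0.356 to 0.432), and by 0.311 (0.276 to 0.346) and 0.352 (0.314 to 0.390) in *pol2-REL* cells. These pairs are on different chromosomes, but the order was the same with a mean of 1 over the genome, where the differences ran from 0.287 to 0.433. The H2A-H2B copies were closer. HTB1-HTA1 was above HTA2-HTB2 by 0.132 in wild-type cells at 30 min (0.0985 to 0.166) and by 0.156 in *pol2-REL* cells (0.118 to 0.194). With a mean of 1 over the genome these differences were 0.235 (0.199 to 0.271) and 0.118 (0.0804 to 0.155). Which genotype had the larger one thus depended on the scale. At 40 min in wild-type cells HTB1-HTA1 was the lower one on the deposited scale, by -0.0830 (-0.124 to -0.0418), and the higher one with a mean of 1 over the genome, by 0.0953 (0.0522 to 0.138). In *pol2-REL* at 40 min the difference was 0.0386 (-0.00374 to 0.0809), which does not order them.

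Within a profile, the order at 30 min was HTB1-HTA1, HHF1-HHT1, HTA2-HTB2 and HHT2-HHF2 in both genotypes. HHF1-HHT1 and HTA2-HTB2 did not differ beyond counting error in wild-type cells at that time, with a difference of 0.0268 (-0.00557 to 0.0593). In *pol2-REL* they differed by 0.0603 (0.0227 to 0.0978). At 40 min the wild-type order began with HTA2-HTB2, 0.0680 above HHF1-HHT1 (0.0260 to 0.110), which was not separated from HTB1-HTA1. With a mean of 1 over the genome HTB1-HTA1 came first, 0.0953 above HTA2-HTB2, and HHF1-HHT1 was 0.0667 below HTA2-HTB2 (0.0256 to 0.108). In *pol2-REL* at 40 min the first 3 pairs were not separated from their neighbours in the order. HHT2-HHF2 was last in all 4 profiles on both scales, beyond counting error.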

How the data were processed

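Whole-genome libraries of 6 conditions were analysed. The authors mapped paired-end reads to S288c (SacCer2) and deposited counts per 1 kb bin, without normalization; the processing notes name BWA 0.7.8, cutadapt and Picard 1.110. They also deposited, for each S phase library, the ratio of its counts to those of G1, this ratio scaled to a mean of 1 per chromosome, and a smoothed form. The strains are W303, so reads were mapped to another strain's sequence. The counting error assumes independent reads. If both mates of a pair entered the counts, a point not given in the sources, it is too small.

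Of 24133 bins, 12070 that do not overlap were used, and bins of chromosome XII were dropped where the G1 count exceeded 5 times the median. Smoothing used a Gaussian kernel (SD 2 kb) on the scaled ratio. The study's methods describe a genome-wide mean and an adjustment for DNA content, but the deposited ratio has a mean of 1 on each chromosome. Bins within a pair were averaged, and percentiles are among all bins of the profile. Peaks were maxima at least 10 kb apart with a prominence of at least 4 counting errors. A difference was called where it exceeded 3 counting errors, with a G1 library shared by both profiles counted once. Errors, calls and peaks were tested on simulated data with Poisson counts, a setting that cannot check variation beyond counting error.

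The members, lists and alternatives were chosen with earlier results of these data known. The genes named were all 8 members, and for each pair the bin at least 50 kb away whose 4 levels were nearest in Euclidean distance. Other histone-related genes were not analysed here, since no annotation of SacCer2 was at hand, and no sequences were printed. The 16 alternatives (15 planned and 1 chosen after the data were seen) changed the smoothing, scale, G1 reference, set of bins, filter, depth, extent of a pair and peak settings. Computations used pandas 2.3.3, numpy 2.4.6 and SciPy 1.17.1 under Python 3.11.15, and matplotlib 3.10.9.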

Additional observations from a re-analysis of the deposited data

How the results depend on the processing

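Under the 12 alternatives that change the copy number and the 4 that change the peaks, the count of values in the highest 25% of bins was 11 or 12 of 16, that near a peak 11 or 12, that of pairs lower in *pol2-REL* at 40 min 3 or 4, and all 8 changes from 30 to 40 min were higher. The count of pairs lower at 30 min, 1 in the main analysis, was 3 with a kernel of 4 kb, 3 with a genome-wide mean of 1, and 2 with the 5th percentile of each chromosome at 1. The difference at HTB1-HTA1 at 40 min changed sign, to 7.20e-05, with the wild-type G1 library for both genotypes. At 30 min the sign also depended on the setting at HHF1-HHT1 (-0.0643 to 0.0153), HTB1-HTA1 (-0.210 to 0.01485) and HHT2-HHF2 (-0.0137 to 0.0418). The difference at HTA2-HTB2 at 30 min stayed negative (-0.1015 to -0.0319). The percentile of HTA2-HTB2 in *pol2-REL* at 30 min ran from 73.2 with a kernel of 4 kb to 93.1 with the wild-type G1 library. The causes were not tested. No paired analysis was possible because each condition has 1 library, and for the same reason none could be left out. The smallest library, *pol2-REL* G1, had 1638 reads in its median bin, a counting error of 2.47%. Variation between cultures was not measured.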

Other observations

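For each histone gene pair the locus with the most similar 4 values was picked. Among 11216 bins at least 50 kb from every pair, the bin on chromosome IV from 330001 to 331000 was nearest to HHF1-HHT1, with 1.18 and 1.46 in wild-type cells at 30 and 40 min and 1.12 and 1.30 in *pol2-REL* cells, at a Euclidean distance of 0.0181 over the 4 profiles. HTA2-HTB2 was nearest to the bin on chromosome XIII from 283001 to 284000, at a distance of 0.0342, and HHT2-HHF2 to that on chromosome XV from 293001 to 294000, at a distance of 0.0340. HTB1-HTA1 had the least close counterpart, on chromosome X from 205001 to 206000, at a distance of 0.0699, with 1.28 and 1.50 in wild-type cells and 1.25 and 1.36 in *pol2-REL* cells. At 40 min in wild-type cells that bin was above the pair, which had 1.44. The genes at these bins were not looked up because the assemblies differ.

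On the deposited scale, the windows of 20 kb around the pairs changed rank between 30 and 40 min. They were not ranked with a mean of 1 over the genome. On that scale HHT2-HHF2 itself was at the percentile 55.4 in wild-type cells and 55.6 in *pol2-REL* cells at 40 min. Around HTB1-HTA1, 15 of 42 bins were in the highest 25% of the genome and 19 in the lowest 25% in wild-type cells at 30 min, and 34 and 0 at 40 min. Around HHT2-HHF2, 31 of 38 bins were in the lowest 25% in wild-type cells at 30 min and 3 at 40 min. In *pol2-REL* the same window had 29 of 36 bins in the lowest 25% at 30 min and 20 at 40 min. From 30 to 40 min 9 of these 36 bins fell in *pol2-REL* cells by over 3 counting errors, relative to the mean of the chromosome, with the largest fall, -0.0650, at 11 kb to the right of the pair. In wild type no bin of that window fell.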
